A study of Mus musculus with 4 samples.

Results

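Haspin and 7 genes beside it on mouse chromosome 11 were examined, 8 of the 55401 genes listed in the count table. They were taken by symbol: Haspin, the gene targeted for knockout, Itgae, whose intron contains it, and P2rx5, Camkk1, Tax1bp3, Emc6, Ctns and Shpk, which lie near them. All 8 had enough reads to enter the test, among 15580 genes in all. RNA was sequenced from E14 mouse embryonic stem cells (mESCs), a line of male origin kept in serum with LIF and 2i, in 2 WT and 2 Haspin-KO libraries. The Haspin-KO lines were made with Cas9 and 2 gRNAs, whose plasmids were transfected together, and single clones were picked that lacked staining for the mark Haspin makes. A pair of such clonal lines exists, and the labels do not say which one each library came from, nor whether libraries of a group came from separate cultures, so that p-values measure only the spread between these libraries, which may be technical. The methods name mitotically inactive mouse embryonic fibroblasts as feeders for passage and gelatin-coated dishes without them for assays, and the labels do not say which the RNA came from.

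Haspin is a kinase that phosphorylates threonine 3 of histone H3 (H3T3ph) during mitosis. Survivin, encoded by Birc5, reads this mark and brings the chromosomal passenger complex with the kinase Aurora B to centromeres, while Haspin also opposes the release of centromeric cohesin by Wapl. The gene was first known from male germ cells. It is a single-exon gene that lies within an intron of Itgae in the opposite orientation, so that any edit of Haspin is also an edit of an Itgae intron.

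In the annotation of the deposited table's build (mm10, GRCm38), Haspin (ENSMUSG00000050107) is 1 exon of 2810 bases on the minus strand, chr11:73135485-73138294, with a coding sequence of 2262 bases. It sits in intron 26 of Itgae (ENSMUSG00000005947, plus strand, chr11:73090583-73147446), an intron of 4356 bases. Itgae exon 26 ends 1386 bases beyond the 3′ end of Haspin, and exon 27 begins 160 bases from the 5′ end. No exon of these 2 genes shares a base with the other gene's exon. A retained-intron transcript of Itgae runs on from exon 26 and ends 650 bases short of Haspin.

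Both gRNA sites matched the Haspin exon once each, and they are shown, on the strand of Haspin with the PAM in capitals, because they set which bases of the gene the cells could have lost. The first lies at chr11:73138274-73138293, in the 5′ untranslated part, and the second at chr11:73138096-73138115, in the coding sequence.
gRNA-1: tttctgtttgaaacgccgggCGG
gRNA-2: cagcgacagtaacgagtcgcCGG
With a cut 3 bases before each PAM, the stretch between the cuts is 178 bases, chr11:73138099-73138276, and it is shown with the start codon of Haspin in capitals because the start codon is inside it.
Stretch between the cuts: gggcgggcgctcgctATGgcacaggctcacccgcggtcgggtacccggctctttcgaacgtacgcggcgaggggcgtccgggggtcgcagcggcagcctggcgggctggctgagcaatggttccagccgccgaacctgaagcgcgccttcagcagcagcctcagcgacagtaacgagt
By the paper's account, genomic PCR and sequencing showed Haspin to be disrupted in the Haspin-KO cells, and H3T3ph was abolished in both lines. The stretch between the cuts is a prediction from the gRNA positions, and the alleles of the lines were not analysed here. It holds 15 untranslated and 163 coding bases, 6.33% of the transcript. The coding bases are 54 whole codons and 1 base more, so the length is not a multiple of 3. The next ATG in the reading frame of Haspin is codon 244 of 754, and 511 codons (67.8%) run from it to the end. In the transcript joined at the cuts, the first ATG is at position 346 and opens another frame that ends after 16 codons. The letters say only where these triplets are, not whether any of them is used.

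The primers used to measure Haspin by qPCR both lie inside the stretch, at chr11:73138221-73138240 and chr11:73138120-73138139.
qPCR forward primer: tcgggtacccggctctttcg
qPCR reverse primer: tgctgctgaaggcgcgcttc
They and the sequencing counts therefore ask different things of the same gene, since the primers cannot amplify an allele without these bases while reads from the remaining 2632 bases (93.7%) are still counted. The table gives 1 total for each gene, so whether reads fell within or beyond the stretch cannot be told from it.

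**Figure D1:**
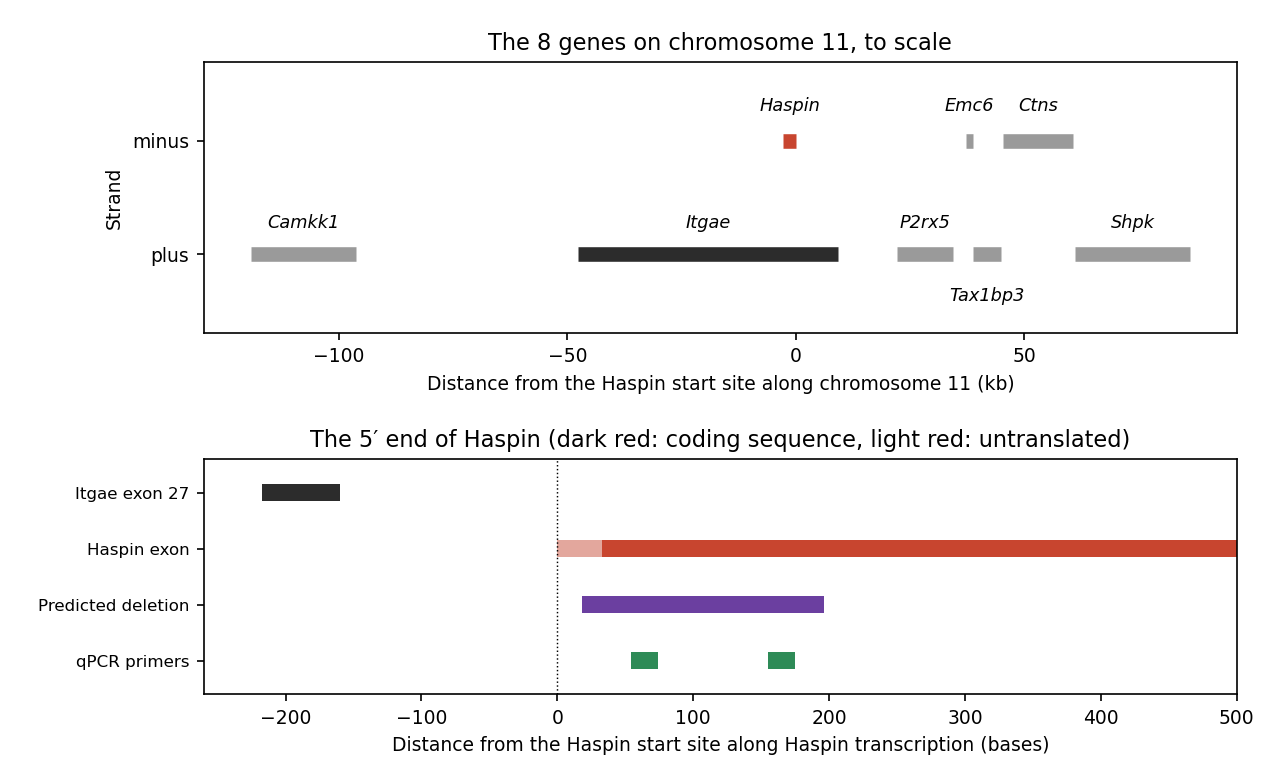
The upper panel places the 8 genes by strand and by distance in kb from the Haspin start site along chromosome 11, with Haspin in red and Itgae in black. The lower panel shows, in bases along Haspin transcription, the 57-base Itgae exon 27, the Haspin exon, the predicted 178-base deletion and the qPCR primers, and the deletion covers the start of the coding sequence and both primers without reaching the Itgae exon.

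Haspin fell in Haspin-KO mESCs but was not lost from the counts. It had 875 and 619 reads in the WT libraries and 149 and 209 reads in the Haspin-KO libraries. As CPM, the reads scaled to a common library total after TMM normalization, these were 40.1 and 35.7 in WT against 10.4 and 14.6 in Haspin-KO, so that both Haspin-KO libraries lay far below both WT libraries and none was at or near 0. The means were 37.9 ± 3.07 CPM in WT and 12.5 ± 3.02 CPM in Haspin-KO (SD, n = 2 libraries each). The log2 fold change was -1.60 (standard error 0.16, 95% interval -1.96 to -1.24, edgeR, adjusted p = 0.00154, Benjamini-Hochberg over all genes tested). Haspin-KO libraries thus kept 33.0% of the WT level, with an interval of 25.7% to 42.3%. Of all genes tested, 0.501% were called lower, which needed both an adjusted p under 0.05 and more than a 2-fold change, and 0.828% were called in either direction. 79 genes had a lower log2 fold change than Haspin and 23 had a smaller p. With limma on log2(FPKM + 0.1) the difference was -1.59 and did not pass the threshold (adjusted p = 0.184). In these bulk libraries, fewer cells with Haspin RNA and less Haspin RNA per cell cannot be told apart.

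The level left in Haspin-KO cells differed between the libraries. It was 27.4% of the WT mean in replicate 1 and 38.6% in replicate 2. Of the 358 Haspin reads in the Haspin-KO libraries together, 149 (41.6%, exact Clopper-Pearson 95% interval 36.5% to 46.9%) were in replicate 1, against 50.2% expected from the scaled totals. The WT pair also departed from its expected share, with 875 of 1494 reads (58.6%, 56.0% to 61.1%) in replicate 1 against 55.8%. Over the 8 genes and both groups, the expected share was outside the interval in 4 of 16 such pairs, and these intervals cover counting error only. Without Haspin-KO replicate 1 the log2 fold change of Haspin was -1.37 and without Haspin-KO replicate 2 it was -1.87, and the call held in both cases.

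Per length, Haspin moved from the upper part of the expressed genes to the middle. FPKM, the reads per kb of exon scaled to the library total, was 14.26 and 12.62 in WT and 3.73 and 5.15 in Haspin-KO. The mean was above that of 73.2% of the tested genes in WT and of 48.0% in Haspin-KO. Over the 2632 bases outside the predicted deletion, the Haspin-KO values would be 3.98 and 5.50, still below both WT libraries.

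Against its own neighbours, which need no scaling by library, Haspin showed the same order of libraries. For every 100 reads on the other 7 genes together, Haspin had 34.2 and 28.4 reads in WT and 9.71 and 13.2 in Haspin-KO. By this ratio Haspin-KO kept 36.6% of the WT mean. The other 7 genes together held 117 and 126 CPM in WT and 107 and 111 CPM in Haspin-KO.

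Itgae, the host gene, encodes the integrin alpha E chain (CD103), which pairs with the beta chain of Itgb7 on intraepithelial T cells and binds E-cadherin. It was the lowest of the 8 genes per length, at 0.65 and 0.68 FPKM in WT and 0.29 and 0.51 FPKM in Haspin-KO. The reads behind these values were few, 65 and 54 in WT and 19 and 34 in Haspin-KO. Neither Haspin-KO library reached the level of a WT library, which was so for 26.9% of all genes tested. The log2 fold change was -0.71 (standard error 0.33, 95% interval -1.45 to 0.02), and it did not pass edgeR's test (adjusted p = 0.251). Its size rested on 1 library, being -0.35 without Haspin-KO replicate 1 and -1.20 without Haspin-KO replicate 2. The interval ran from 36.7% to 101% of the WT level, so a fall of Itgae was neither shown nor excluded by these libraries. No source used here says whether reads were counted by strand, and the share of Itgae reads that came from other transcripts of this intron was not tested. For every 100 Haspin reads there were 7.43 and 8.72 Itgae reads in WT and 12.8 and 16.3 in Haspin-KO. This ratio rises whenever Itgae falls less than Haspin, the targeted gene, and it does not bear on where the Itgae reads came from. The 95% intervals of the log2 fold changes overlapped, at -1.45 to 0.02 for Itgae and -1.96 to -1.24 for Haspin.

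The predicted deletion stops 178 bases short of Itgae exon 27. The 250 bases before the Haspin start (chr11:73138295-73138544, RefSeq promoter window, GRCm38.p6) are shown on the strand of Haspin, with the 57 bases of Itgae exon 27 in capitals, because the upstream region of one gene holds an exon of the other.
Upstream of Haspin: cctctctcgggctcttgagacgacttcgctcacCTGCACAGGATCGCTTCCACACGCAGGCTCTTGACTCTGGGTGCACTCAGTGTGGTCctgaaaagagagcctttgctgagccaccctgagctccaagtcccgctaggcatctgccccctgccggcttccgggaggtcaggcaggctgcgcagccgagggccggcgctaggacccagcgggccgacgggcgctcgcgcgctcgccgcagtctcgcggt
None of these bases is in the predicted deletion, which begins after the first 18 bases of the transcript. The last 18 bases of the forward genotyping primer match the far end of this window, so the genotyping product spans the exon as well.

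Leukocyte markers were read beside Itgae, because its protein is known from those cells. Ptprc, the common leukocyte antigen, had 0 reads in all 4 libraries, and Cd8a had 2 reads in WT replicate 1 and 0 elsewhere. The summed level of the 6 markers was 19.9 and 18.4 CPM in WT and 14.1 and 14.1 CPM in Haspin-KO, and 0 of the 3 that could be tested passed edgeR's adjusted p, with 2 lower at an unadjusted p under 0.05. These 2 were Cd4 and Cd3e. Cd4 had 147 and 91 reads in WT and 56 and 34 in Haspin-KO (log2 fold change -0.94, edgeR, adjusted p = 0.103). Cd3e had 53 and 50 reads in WT and 21 and 22 in Haspin-KO (-0.81, edgeR, adjusted p = 0.171). Itgb7, the partner chain, gave 10.2 and 10.1 CPM in WT and 8.63 and 9.95 CPM in Haspin-KO, a log2 fold change of -0.12 (edgeR, adjusted p = 0.701).

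None of the other 6 genes passed the test. Of the 7 neighbours including Itgae, 0 were called by edgeR, with 0 at an unadjusted p under 0.05, and DESeq2 and limma likewise called 0. Of all genes tested, 2.50% had an adjusted p under 0.05. Both Haspin-KO libraries lay below both WT libraries in 4 of the 7 neighbours (Itgae, Camkk1, Emc6 and Ctns) and above them in 1 (Shpk), against 26.9% and 25.3% of all genes tested, and they overlapped in P2rx5 and Tax1bp3. The median log2 fold change of the 7 was -0.19, beside -0.0039 over all genes tested.

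**Figure D2:**
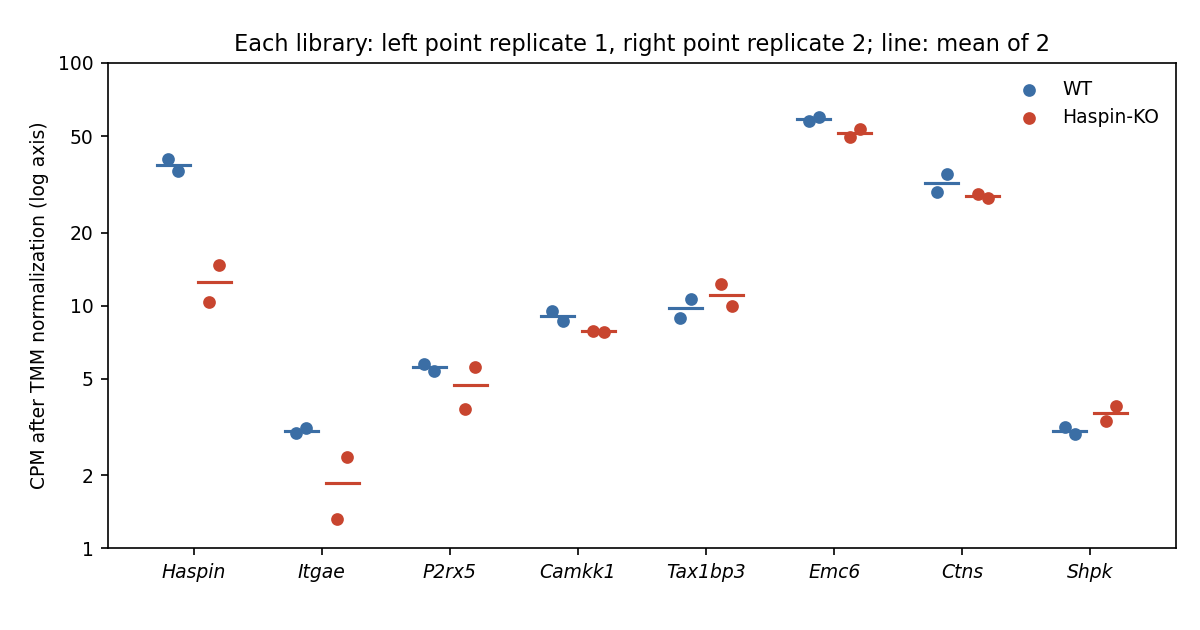
CPM of each gene in each library on a log axis, with WT in blue, Haspin-KO in red, replicate 1 to the left of replicate 2 and a line at the mean of 2. The Haspin-KO points of Haspin, at 10.4 and 14.6 CPM, are well apart from the WT points at 40.1 and 35.7 CPM, while the groups lie close together in the other genes except Itgae.

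P2rx5 (chr11:73160421-73172685, plus strand), a cation channel opened by extracellular ATP, lies 22126 bases beyond the start of Haspin, and the pair point away from each other. It had 126 and 93 reads in WT and 54 and 80 reads in Haspin-KO, or 5.77 and 5.36 CPM against 3.76 and 5.60 CPM. Haspin-KO replicate 1 was low and replicate 2 was within the WT range. The log2 fold change was -0.25 (95% interval -0.79 to 0.28, edgeR, adjusted p = 0.584), and it was 0.0097 without Haspin-KO replicate 1. In the Haspin-KO pair, replicate 1 held 40.3% of the P2rx5 reads (95% interval 31.9% to 49.1%) against 50.2% expected.

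Camkk1 (chr11:73019008-73042073, plus strand), a kinase that activates calcium- and calmodulin-dependent kinases, is the member farthest from Haspin, with Ncbp3 between it and Itgae. It had 207 and 150 reads in WT and 113 and 111 reads in Haspin-KO, or 9.48 and 8.65 CPM against 7.87 and 7.77 CPM. The Haspin-KO libraries were close to each other and a little below WT. The log2 fold change was -0.21 (95% interval -0.59 to 0.16, edgeR, adjusted p = 0.493).

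Among the 8 genes, Emc6 and Tax1bp3 are the closest pair that do not overlap. Emc6 (chr11:73175519-73177037, minus strand) encodes a subunit of the complex that inserts membrane proteins at the endoplasmic reticulum, and Tax1bp3 (chr11:73177083-73183162, plus strand) a small protein made of a single PDZ domain. Their starts face away from each other across 45 bases (chr11:73177038-73177082, read on the plus strand), which are shown, with the 1 match to CCGCCC in capitals, because both genes begin there.
Between Emc6 and Tax1bp3: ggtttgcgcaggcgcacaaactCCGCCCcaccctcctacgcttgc
Emc6 was the highest of the 8 genes per length, at 40.65 and 42.11 FPKM in WT and 35.42 and 37.25 FPKM in Haspin-KO. Its Haspin-KO libraries were below WT by a small margin, with a log2 fold change of -0.19 (standard error 0.09, 95% interval -0.39 to 0.01, edgeR, adjusted p = 0.255). With 712 to 1256 reads in a library, this interval was the narrowest among the 8 genes. Tax1bp3, across the 45 bases, gave 8.88 and 10.7 CPM in WT and 12.3 and 9.95 CPM in Haspin-KO. The groups overlapped and the estimate was on the other side of 0, at 0.19 (95% interval -0.21 to 0.58, edgeR, adjusted p = 0.579).

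Ctns and Shpk form another such pair, with 417 bases between them, and the 3′ ends of Tax1bp3 and Ctns are 433 bases apart. Ctns (chr11:73183596-73199042, minus strand) encodes cystinosin, the lysosomal exporter of cystine, whose loss causes cystinosis. It had 29.4 and 34.8 CPM in WT and 28.8 and 27.9 CPM in Haspin-KO, so the groups nearly touched, and the log2 fold change was -0.18 (95% interval -0.44 to 0.08, edgeR, adjusted p = 0.407). Shpk (chr11:73199460-73224511, plus strand) encodes sedoheptulokinase, which feeds sedoheptulose into the pentose phosphate pathway. It had 69 and 51 reads in WT and 48 and 55 reads in Haspin-KO, or 3.16 and 2.94 CPM against 3.34 and 3.85 CPM. It was the 1 neighbour with both Haspin-KO libraries above WT, by a log2 fold change of 0.23 (95% interval -0.32 to 0.79, edgeR, adjusted p = 0.628).

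Ordered by mean FPKM, the WT levels were 41.4 for Emc6, 13.4 for Haspin, 9.45 for Ctns, 3.26 for Tax1bp3, 2.43 for Camkk1, 2.32 for P2rx5, 1.02 for Shpk and 0.67 for Itgae. The libraries of Camkk1 and P2rx5 overlapped, and those of all other genes next to each other in this order did not. In Haspin-KO, Haspin came after Ctns, at 4.44 FPKM against 8.35, and its libraries overlapped those of Tax1bp3, at 3.72. The other 7 genes kept their order around it.

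The promoter windows of RefSeq, 250 bases before to 50 after each start, covered 6 of the 8 genes, without Itgae and P2rx5. On either strand, GGGCGG was found once in Haspin, Ctns and Shpk, 2 times in Tax1bp3 and 3 times in Camkk1 and Emc6, and 35.9% of all 27025 windows hold it. The match in Haspin lies after its start, where it opens the predicted deletion, so this window reaches into the deletion. CCAAT was found in Camkk1, Emc6 and Shpk (37.9% of all windows) and TATAAA in none of the 6 (14.2% of all windows). All 6 windows had more CG pairs than the median window with 7, from 11 in Ctns to 28 in Haspin and 36 in Camkk1. The windows of Emc6 and Tax1bp3 share bases, so their matches are not separate.

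Beyond the 8 genes, the surroundings gave no call. Within 500 kb of Haspin on either side the table lists 42 other genes, 17 of them with no read in any library, and 16 were tested, the 7 neighbours among them. With edgeR, 0 of the 16 had an adjusted p under 0.05 (0 also at an unadjusted p under 0.05, and 0 with DESeq2 or limma), beside 2.50% of all genes tested. Their log2 fold changes were negative in 8 and positive in 8, from -0.73 in P2rx1 to 0.63 in Trpv3, with a median of -0.0034. The nearest tested genes outside the 8 were Ncbp3, a cap-binding protein, with 93.2 and 101 CPM in WT and 100.5 and 105 CPM in Haspin-KO (log2 fold change 0.08, edgeR, adjusted p = 0.597), and Trpv3, a heat-sensitive channel of keratinocytes, with 0.69 and 0.46 CPM against 1.18 and 0.63 CPM (0.63, edgeR, adjusted p = 0.497). Neither group of libraries stood apart from the other in these genes. Without Haspin-KO replicate 2, 1 gene passed, Atp2a3, a calcium pump of the endoplasmic reticulum, at -0.74.

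**Figure D3:**
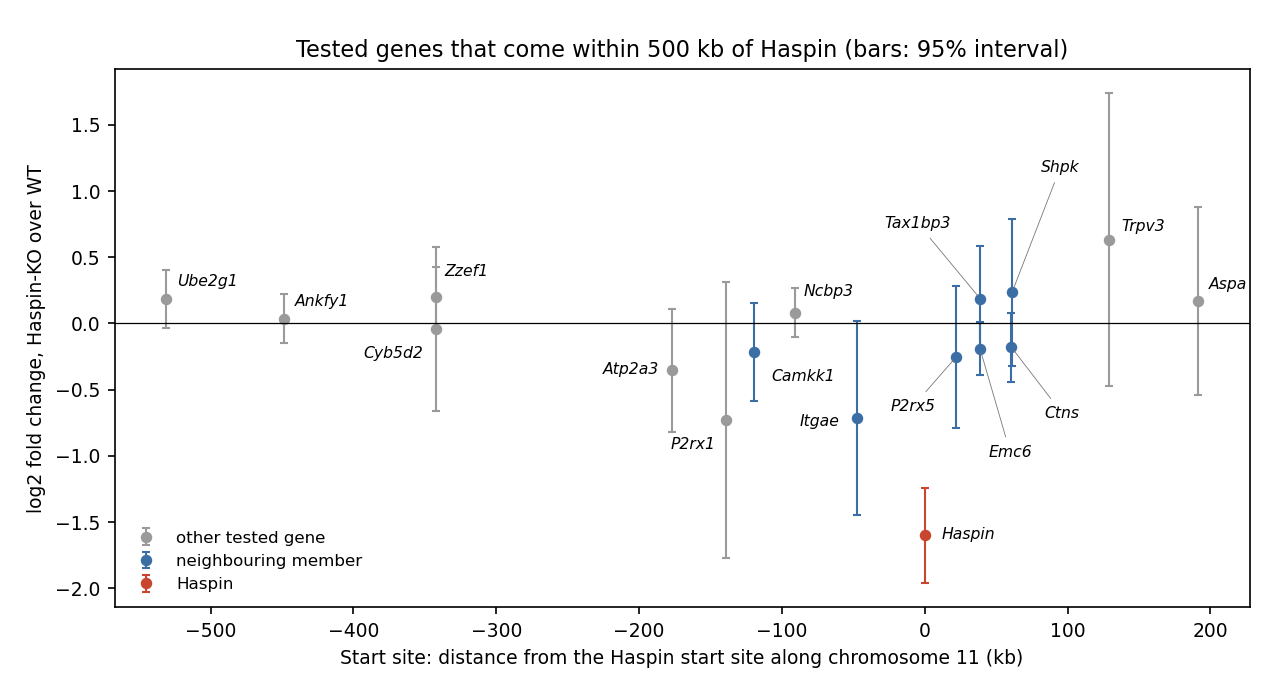
Log2 fold change of Haspin-KO over WT for Haspin (red), the 7 neighbours (blue) and the other tested genes that come within 500 kb (grey), against the distance in kb of each start site from that of Haspin, with 95% intervals as bars. Haspin, at -1.60, has an interval far from 0, and the intervals of all 16 other genes include 0.

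**Figure D4:**
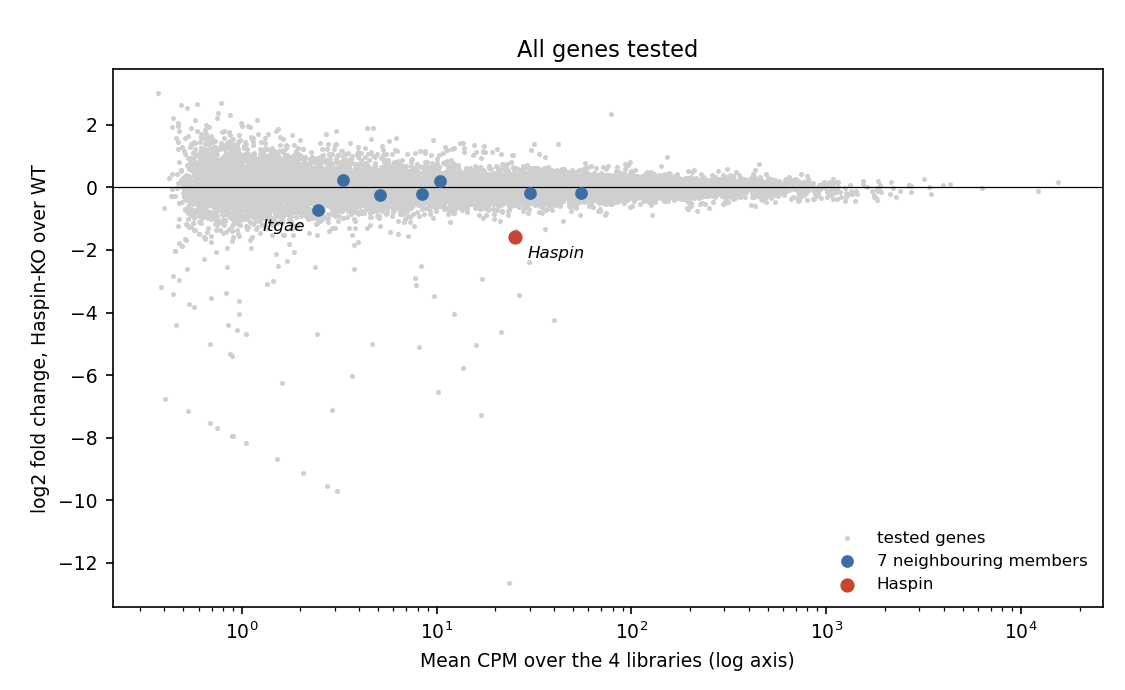
Log2 fold change of Haspin-KO over WT against mean CPM on a log axis for all 15580 genes tested (grey), with Haspin in red and the 7 neighbours in blue. Haspin lies below the band of genes of like abundance, at -1.60, and the neighbours, from -0.71 for Itgae to 0.23 for Shpk, lie within it.

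Genes that act upstream of Haspin, on its mark or beside it in the same pathway were tested in the same fit, and none of them passed. The list held 18 genes: the activating kinases, the chromosomal passenger complex, the Bub1 and shugoshin branch that also places that complex, the cohesin regulators, the phosphatase that removes H3T3ph, and topoisomerase II. All 18 were tested, and with edgeR 0 had an adjusted p under 0.05, with 1 lower and 4 higher at an unadjusted p under 0.05, and with 0 by DESeq2 or limma. The median log2 fold change was 0.04 and the smallest adjusted p was 0.0697. Both Haspin-KO libraries were below WT in 5 of the 18 and above WT in 8, against 26.9% and 25.3% of all genes tested.

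The most abundant gene of each branch, by mean CPM, was named. Ccnb1, the cyclin of the mitotic kinase that activates Haspin, gave 370 and 349 CPM in WT and 357 and 375 CPM in Haspin-KO. Incenp, the scaffold of the passenger complex, gave 209 and 220 against 197 and 205 CPM, and Bub1, the kinase of the other branch, 172 and 184 against 190 and 189 CPM. Ppp1ca, a catalytic subunit of the phosphatase, gave 386 and 357 against 337 and 342 CPM. Top2a, which untangles sister chromatids, gave 851 and 906 against 847 and 878 CPM. The log2 fold changes of these 5 were between -0.13 and 0.09, with adjusted p from 0.327 to 0.873 (edgeR). Wapl, named by the same rule for the cohesin regulators, was outside this range at 0.24. The 5 genes with an unadjusted p under 0.05 were looked at after their values were seen. They were Aurkb, the kinase of the passenger complex, at -0.18, and Pds5a, Pds5b, Wapl and Ppp1cb at 0.27, 0.23, 0.24 and 0.18. Wapl, which releases cohesin and is the most abundant gene of its branch, gave 251 and 282 CPM in WT and 301 and 326 CPM in Haspin-KO (adjusted p = 0.145).

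**Figure D5:**
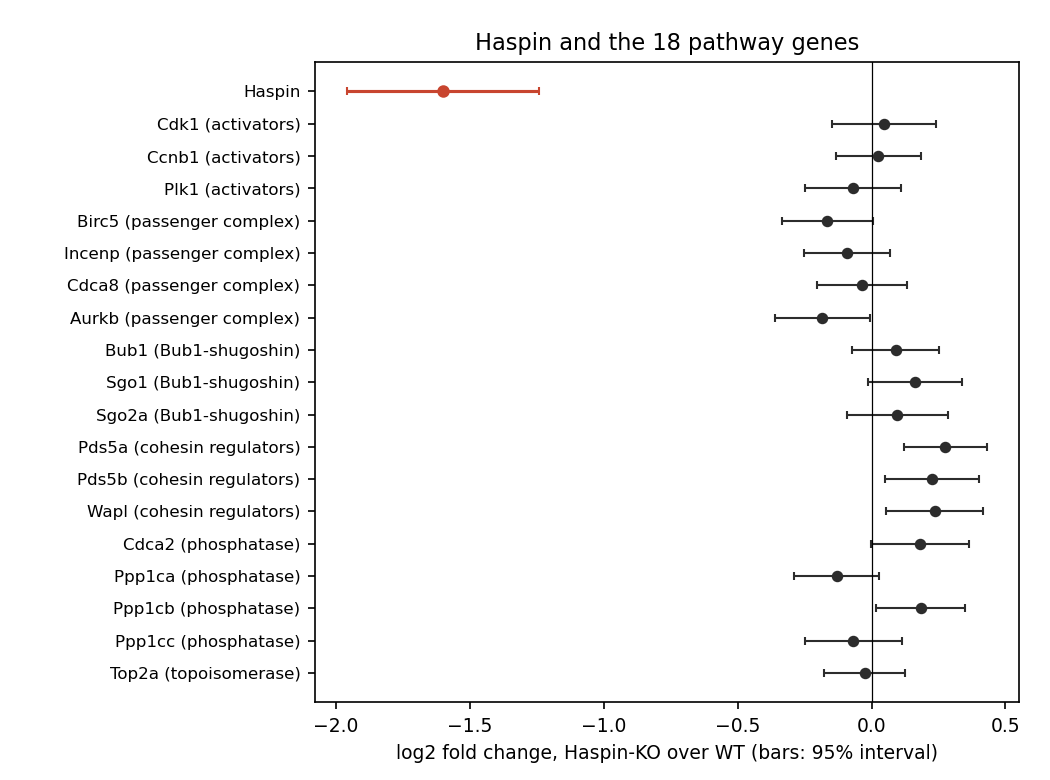
Log2 fold change of Haspin-KO over WT with 95% interval for Haspin (red) and the 18 pathway genes (black), each named with its branch. Haspin is at -1.60, and the pathway genes lie between -0.18 and 0.27.

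Markers of the labelled cells and of other cells bear on how far these values are those of mESCs. The 8 pluripotency markers, Pou5f1, Sox2 and Nanog among them, were present in every library, with summed levels of 5579 and 5768 CPM in WT and 5115 and 5282 CPM in Haspin-KO. Of the 8, 0 passed the adjusted p, with 3 lower at an unadjusted p under 0.05 (edgeR). These 3 were Klf4, Dppa5a and Tdgf1, at log2 fold changes of -0.29, -0.21 and -0.18, and Sox2, the only marker with a positive value, was at 0.08. Of 10 fibroblast markers 7 were tested, and 6 had an adjusted p under 0.05 and were lower in Haspin-KO (edgeR), beside 2.50% of all genes tested in either direction. Among these 6, Pdgfrb at -0.85 was changed less than 2-fold, and Thy1, the tested marker that did not pass, was at -0.51. The summed level of the 10 was 112 and 85.6 CPM in WT and 12.3 and 10.4 CPM in Haspin-KO. Col1a1 had 1063 and 575 reads in WT and 24 and 24 in Haspin-KO, Postn had 0 in both Haspin-KO libraries, and Lum had 0 in all 4. The part of these cells in the values of the 8 genes was not tested. Germ cell markers were read because Haspin is best known from male germ cells. Of the 6, Prm1 and Tnp1 had 0 reads in all libraries, and Acrv1 had 1 and 4 in WT and 1 and 0 in Haspin-KO. The summed level, nearly all from Ddx4, Dazl and Sycp3, was 44.9 and 48.0 CPM in WT and 71.2 and 56.3 CPM in Haspin-KO. Which cells this level came from was not tested. Of these 3 genes, the only ones tested, 0 passed edgeR's adjusted p and 2 were higher at an unadjusted p under 0.05. These 2 were Ddx4 and Dazl. Ddx4 had 10.8 and 12.6 CPM in WT and 17.8 and 17.9 CPM in Haspin-KO (log2 fold change 0.61, edgeR, adjusted p = 0.0553). Dazl had 27.9 and 30.2 CPM in WT and 47.6 and 33.0 CPM in Haspin-KO (0.47, edgeR, adjusted p = 0.134). Sycp3, the other tested marker, was at 0.0042.

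The genes whose pattern over the 4 libraries was most like that of Haspin were on other chromosomes. Likeness was the root mean square difference of log2(CPM + 0.5) after centring each gene on its mean. It was 0.016 for Adamts1, 0.13 for Loxl1, 0.18 for Eif2s3y, 0.18 for Fads3 and 0.19 for Rgs16, over 4 libraries that were also those of the comparison. Adamts1 had 30 and 21 reads in WT and 0 and 3 in Haspin-KO, so that its likeness rests on few reads and on the added 0.5. The same limit holds for Loxl1, Fads3 and Rgs16, with 7 and 9, 3 and 10, and 2 and 2 reads in Haspin-KO. Log2 fold changes were -3.54 for Adamts1, -2.35 for Loxl1, -1.95 for Fads3 and -3.37 for Rgs16. All 4 were larger falls than that of Haspin at -1.60, while Eif2s3y, with 240 and 339 reads in Haspin-KO, was at -1.34. Eif2s3y, a translation initiation factor gene of the Y chromosome, had 47.7 and 55.0 CPM in WT and 16.7 and 23.7 CPM in Haspin-KO. Over the 9 tested genes of that chromosome the median log2 fold change was -1.08, with an adjusted p under 0.05 in 4 (44.4%, edgeR), beside 2.50% of all genes tested. Loxl1, an enzyme that cross-links elastic fibres, is 1 of the 10 fibroblast markers.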

How the data were processed

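RNA-seq of 2 WT and 2 Haspin-KO E14 libraries was used. The authors trimmed the reads (Cutadapt 1.9.1), mapped them to mm10 (Hisat2 2.0.1), counted them per gene and deposited raw counts. HTSeq 0.6.1 and DESeq2 are named in the submitters' processing notes. The strand setting and the annotation release are not given in the sources used here. FPKM values, also deposited by the authors, equal counts over exonic length and library total in 100% of values within 0.00501. Totals were 21834847 and 17452307 counts in WT and 14207828 and 14436750 in Haspin-KO, and 3 counts (0.137 to 0.211 CPM) were taken as the floor.

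All genes were fitted with edgeR 4.0.16 (R 4.3.3; filterByExpr, TMM, quasi-likelihood test), without a block, on all 4 libraries. Standard errors are the log2 fold change over the root of F, and 95% intervals use the test's degrees of freedom. Called genes had an adjusted p (Benjamini-Hochberg) under 0.05 and changed more than 2-fold. Alternatives were DESeq2 1.42.0, limma 3.58.1 (without trend) on log2(FPKM + 0.1) where 2 or more libraries reached 0.5 FPKM, other scalings, filters and windows, thinning, a replicate block and leaving out each library. The edgeR and limma fits were tested on simulated data. The gRNAs and primers of the study were matched to GENCODE M21 transcripts (GRCm38), in which all 8 genes have the table's coordinates, and upstream sequences came from RefSeq.

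Named were the 8 genes, called genes within 500 kb, the nearest tested gene outside the 8 on each side, the most abundant pathway gene of each branch and the 5 genes most like Haspin. The 8 genes and all lists were chosen with earlier results of these data known. GO and KEGG columns were not used.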

Additional observations from a re-analysis of the deposited data

How the results depend on the processing

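Leaving out single libraries gave Haspin log2 fold changes from -1.87 to -1.37, and it stayed the 1 called gene of the 8, with 0 calls among the 7 neighbours. P2rx5 ranged from -0.57 to 0.0097, turning sign without Haspin-KO replicate 1. The number of genes called in all went from 129 to between 60 and 266, being 60 without WT replicate 1, 60 without WT replicate 2, 209 without Haspin-KO replicate 1 and 266 without Haspin-KO replicate 2, and the number within 500 kb to between 0 and 1. Limma on log2(FPKM + 0.1) gave Haspin -1.59 (adjusted p = 0.184), called 0 of the 8 genes and 42 genes in all. No filter on low counts gave 265 genes in all, and the adjusted p without the fold change gave 390. With a minimum of 10 counts in every library 36 genes were called lower and 52 higher, with DESeq2 42 and 47, against 78 and 51. The causes of these shifts were not tested. The replicate numbers are shared by WT and Haspin-KO, but no source says that same-numbered libraries belong together. Across genes, the differences between replicates 1 and 2 in WT and in Haspin-KO had r = 0.338 (genes are no independent replicates). A block on the replicate number put Haspin at -1.61 and called 407 genes in all, 2 within 500 kb (Atp2a3 at -0.37 and Zzef1 at 0.20), 7 in the pathway (Aurkb and Birc5 lower, Cdca2, Pds5a, Pds5b, Ppp1cb and Wapl higher) and still 0 of the 7 neighbours. That fit left 1 residual degree of freedom and infinite prior degrees of freedom. Other scalings, thinning and both other window widths changed no call among the 8 genes, the 500 kb or the pathway. Counts under 100 in Itgae and Shpk, and in P2rx5 outside WT replicate 1, with 2 libraries per group, limited what could be seen there.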

Other observations

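Over chromosome 11 as a whole, the median log2 fold change of the 1232 tested genes was -0.04, within the medians of the other 18 autosomes, from -0.08 to 0.11. A window of 250 kb on either side of Haspin held 13 tested genes with a median of -0.18, and a window of 1 Mb held 30 with a median of -0.11 and a smallest adjusted p of 0.0511 by edgeR, and 0 genes passed in either. The summed level of the 42 other genes listed within 500 kb, tested or not, was 532 and 577 CPM in WT and 536 and 578 CPM in Haspin-KO, so that in each group replicate 2 was above replicate 1 by more than the groups differed.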
